A study of Rattus norvegicus with 6 samples.

Results

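The 42 genes described here are the rat genes of the major histocompatibility complex (MHC) and of the machinery that loads its molecules with peptide, measured by RNA-seq in cultured neonatal rat cardiomyocytes with and without progesterone. They were chosen by name and annotation: every protein-coding row of the gene table whose name begins with RT1-, the name of the rat MHC, together with B2m, Tap1, Tap2, Tapbp, Nlrc5, Ciita, Cd74, Erap1, Calr, Canx and Pdia3. They make up 42 of the 33565 rows. By their descriptions 21 of the RT1 rows are class I and 10 are class II, and the 11 genes given by name complete the set.

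MHC class I molecules are carried by nearly all nucleated cells and show peptides from the cell's own proteins to cytotoxic T cells and natural killer cells. Their heavy chain is held by the small subunit beta-2 microglobulin and receives peptides that the TAP transporter has pumped into the endoplasmic reticulum, while MHC class II molecules show peptides from engulfed proteins to helper T cells and belong mainly to macrophages, dendritic cells and B cells. Interferons are known inducers of class I genes in many cell types, heart muscle cells included, and the transactivators NLRC5 and CIITA drive class I and class II genes.

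One group was exposed for 24 h to 100 nM progesterone, and the other group to control vehicle. Both were primary cardiomyocytes from hearts of Sprague-Dawley rats of postnatal day 7, grown in DMEM, a standard culture medium, with serum from fetal calves, and each group had 3 libraries of mRNA-enriched RNA. The series title names YAP, cardiomyocyte proliferation and cardiac repair as the study's subject. The labels call the libraries biological replicates without saying whether they are separate animals or cultures, so that p-values reflect spread between these libraries alone, which may be technical.

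The libraries held 21156793 to 25376220 counts. All 10 cardiomyocyte markers searched for were read in both groups, among them Myh6, the alpha myosin heavy chain, at 577 FPKM (fragment counts scaled by transcript length and library size, as the authors deposited them) with progesterone and 724 FPKM in the control. The 9 fibroblast markers that matched a row were read as well, with the collagen gene Col1a1 at 2858 FPKM with progesterone and 2550 FPKM in the control, so the cultures held RNA of more than cardiomyocytes. Both lists moved in both directions, with 3 of the 10 cardiomyocyte markers higher and 5 lower with progesterone, and 5 of the 9 fibroblast markers higher and 3 lower. In bulk RNA, fewer cells of a type and less RNA per cell cannot be told apart. Progesterone and control libraries differed widely: edgeR's quasi-likelihood test called 63.0% of the 15075 rows tested at an adjusted p under 0.05, 31.8% lower and 31.2% higher with progesterone.

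Nearly all MHC and antigen presentation genes with enough reads to test were lower with progesterone. Of the 31 tested, 28 were lower (90.3%, where 31.8% of all rows tested were), and 3 were not called, namely RT1-M6-2, RT1-DMb and Canx. None was higher by edgeR, DESeq2 or limma on FPKM, and none of these tools found one higher at an unadjusted p under 0.05. The median log2 fold change (progesterone over control) of the 31 was -3.91, against 0.00 over all rows tested. Differences of at least 8-fold were called for 21 of them, a size that 2.10% of all rows tested reached in that direction. The values of the progesterone libraries all lay below those of the control libraries in 29 of the 31, where 34.8% of all rows tested did so. The filter on low counts let 22 of the 31 pass on the counts of either group, and 20 of these were lower. Another 8 passed on the control libraries alone, so that their calls were bound to be toward lower values. These 8 were RT1-CE10, RT1-CE3, RT1-CE1, RT1-Da, RT1-Ba, Nlrc5, Tap2 and Ciita. RT1-DMb passed on the progesterone libraries alone. The 11 genes not tested had at most 50 counts over all 6 libraries, and 4 of them had none.

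**Figure D1:**
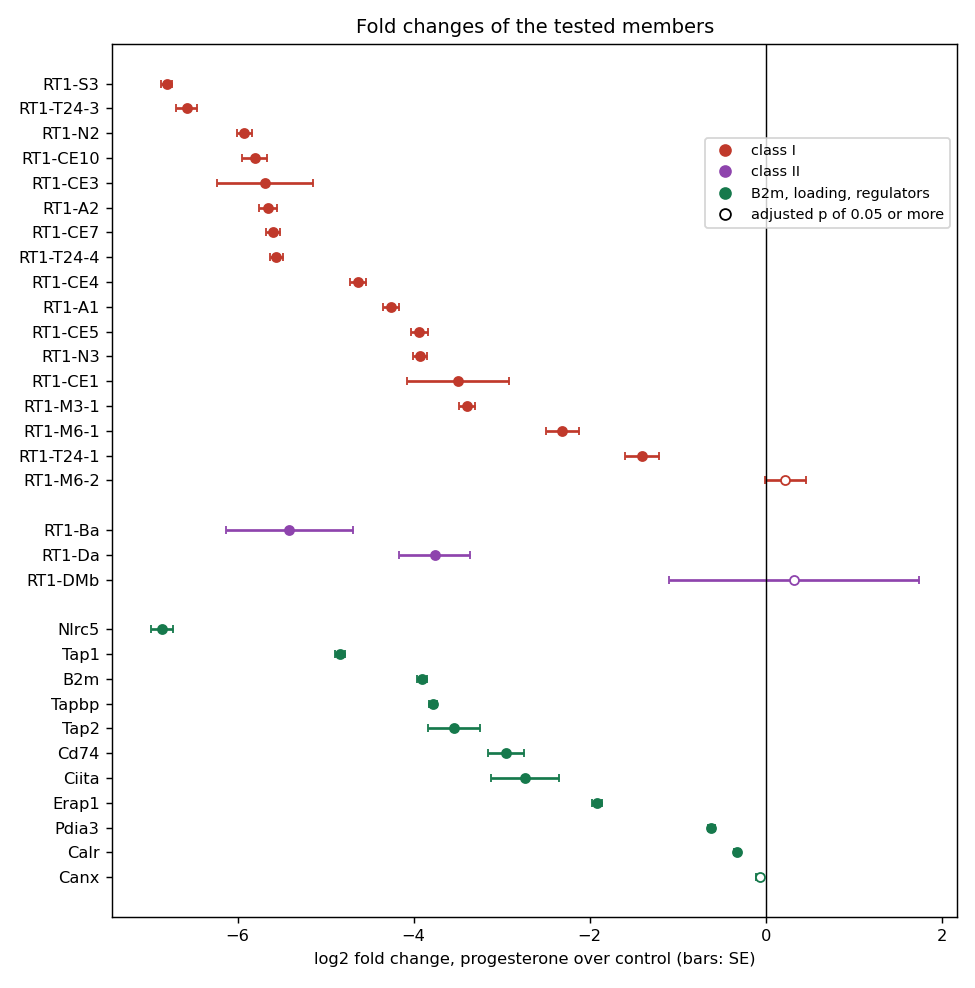
Log2 fold change (progesterone over control) with its standard error for the 31 tested genes, grouped into class I, class II and the other genes. All but 3 points lie left of the zero line with an adjusted p under 0.05, from -6.86 for Nlrc5 to -0.33 for Calr, while RT1-M6-2, RT1-DMb and Canx were not called.

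Promoter sequences were looked at because the genes moved together. RefSeq gives a promoter for 34 of the 42 genes in build GRCr8, as 250 bases before and 50 after the start. The 6 below are shown for the classical class I gene RT1-A2, for RT1-S3, which had the highest class I level in the control, for its partner chain B2m, for the transporter gene Tap1, for the class II gene RT1-Da, and for RT1-M6-2, which was not called. Each is the 250 bases before the start, 5′ to 3′ on the gene's strand. Capitals mark matches to 1 of 4 patterns searched on both strands. The capitals of RT1-S3, B2m and Tap1 mark the core of the interferon-stimulated response element or ISRE (TTTC, 2 free bases, TTTC). The first capitals of RT1-A2 are the palindrome of class I enhancer A. The next capitals are the form of the ISRE in classical class I promoters, searched with the base before the last 2 left free. Those of RT1-Da are a form of the X box of class II promoters. In B2m the match is on the opposite strand.
RT1-A2 (chr20:4872621-4872870, plus strand): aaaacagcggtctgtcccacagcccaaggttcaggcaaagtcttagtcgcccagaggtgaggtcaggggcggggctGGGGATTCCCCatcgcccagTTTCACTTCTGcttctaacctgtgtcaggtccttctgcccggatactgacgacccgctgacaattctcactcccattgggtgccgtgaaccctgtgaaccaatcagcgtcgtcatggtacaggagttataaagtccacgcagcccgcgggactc
RT1-S3 (chr20:2675278-2675527, plus strand): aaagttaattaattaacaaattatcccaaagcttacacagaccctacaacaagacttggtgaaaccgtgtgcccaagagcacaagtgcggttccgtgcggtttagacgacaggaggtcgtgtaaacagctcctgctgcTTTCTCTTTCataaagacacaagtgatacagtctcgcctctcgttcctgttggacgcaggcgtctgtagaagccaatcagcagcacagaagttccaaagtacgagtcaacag
B2m (chr3:129549080-129549329, plus strand): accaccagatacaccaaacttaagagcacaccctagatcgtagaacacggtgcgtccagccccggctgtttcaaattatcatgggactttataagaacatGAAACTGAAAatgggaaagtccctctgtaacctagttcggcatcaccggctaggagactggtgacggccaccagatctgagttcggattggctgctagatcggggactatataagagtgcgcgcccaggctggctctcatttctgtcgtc
Tap1 (chr20:4668544-4668793, minus strand): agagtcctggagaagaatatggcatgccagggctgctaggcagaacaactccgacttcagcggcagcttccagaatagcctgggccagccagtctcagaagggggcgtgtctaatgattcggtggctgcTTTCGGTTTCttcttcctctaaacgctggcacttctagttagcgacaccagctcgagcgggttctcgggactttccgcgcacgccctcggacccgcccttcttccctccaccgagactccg
RT1-Da (chr20:4515165-4515414, plus strand): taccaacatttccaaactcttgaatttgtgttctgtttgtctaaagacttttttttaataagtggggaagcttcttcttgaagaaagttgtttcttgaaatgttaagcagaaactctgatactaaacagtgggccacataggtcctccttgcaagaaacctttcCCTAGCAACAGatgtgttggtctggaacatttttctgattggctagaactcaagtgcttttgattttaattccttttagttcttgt
RT1-M6-2 (chr20:1588283-1588532, plus strand): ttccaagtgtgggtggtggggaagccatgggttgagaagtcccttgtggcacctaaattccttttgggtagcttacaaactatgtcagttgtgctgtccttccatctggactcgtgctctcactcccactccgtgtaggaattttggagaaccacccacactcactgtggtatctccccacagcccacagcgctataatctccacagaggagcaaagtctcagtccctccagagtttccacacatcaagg

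A match describes letters in a window and is not a bound site. The ISRE core was found in 7 of the 34 windows of 300 bases (20.6%), those of RT1-S3, RT1-N3, RT1-S2, B2m, Tapbp, Tap1 and Tap2, and in 3.92% of all 33469 promoters of the RefSeq table. The classical class I form was found in 6 class I genes, RT1-A2, RT1-A1, RT1-CE5, RT1-CE10, RT1-CE3 and RT1-M3-1, and in 0.185% of all promoters. RT1-A2, RT1-A1, RT1-CE4 and RT1-CE10 held the enhancer A palindrome, which 0.0627% of all promoters hold. The X box form, searched as an exact string, was found in RT1-Da alone among the 34 genes and in 0.155% of all promoters. Variants of it in other class II promoters were not searched for. Further patterns carry no capitals. A kappaB form (GGG, 2 free bases, TTTCC) was found in B2m, Tapbp, Tap1 and Cd74 and in 1.53% of all promoters. The CCAAT box (ATTGG) was found in 26 of the 34, including all 9 class II genes with a window, and in 37.5% of all promoters. The gamma-interferon activation core (TTCNNNGAA) was found in RT1-M3-1 alone and in 8.87% of all promoters. The ISRE matches of Tapbp, 2 in number, overlap each other. The classical class I form, the enhancer A palindrome and the X box form were added to the search after these windows had been read. Their counts among these genes are therefore a description and not a test.

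Class I heavy chains, the peptide-binding subunits, were lower in 16 of the 17 rows tested (94.1%, against 31.8% of all rows tested). Their median log2 fold change was -4.64. Of the 16, RT1-CE10, RT1-CE3 and RT1-CE1 passed the filter on the control libraries alone. The 21 class I rows together took 984, 1001 and 1075 counts in the progesterone libraries, against 45520, 42206 and 43276 in the control libraries. That is 0.00465% ± 1.68e-05 of all counts with progesterone and 0.184% ± 0.00529 in the control (SD, n = 3 each), a share 39.6-fold lower with progesterone. Unlike the values of single rows, the sum does not depend on how the counted reads were divided among these 21 rows. Reads left out as ambiguous would be missing from it, and the read counter is not stated. Reads can also have gone to class I rows under other names. With 6 such rows and a pseudogene row that overlaps RT1-A1 added, chosen after the data had been seen, the sums were 1470, 1470 and 1509 counts with progesterone and 49417, 45776 and 46843 in the control, a share 29.5-fold lower with progesterone. The 6 rows themselves include the pseudogenes AABR07044362.2 and AC120486.2 and a processed transcript, LOC108348140.

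**Figure D2:**
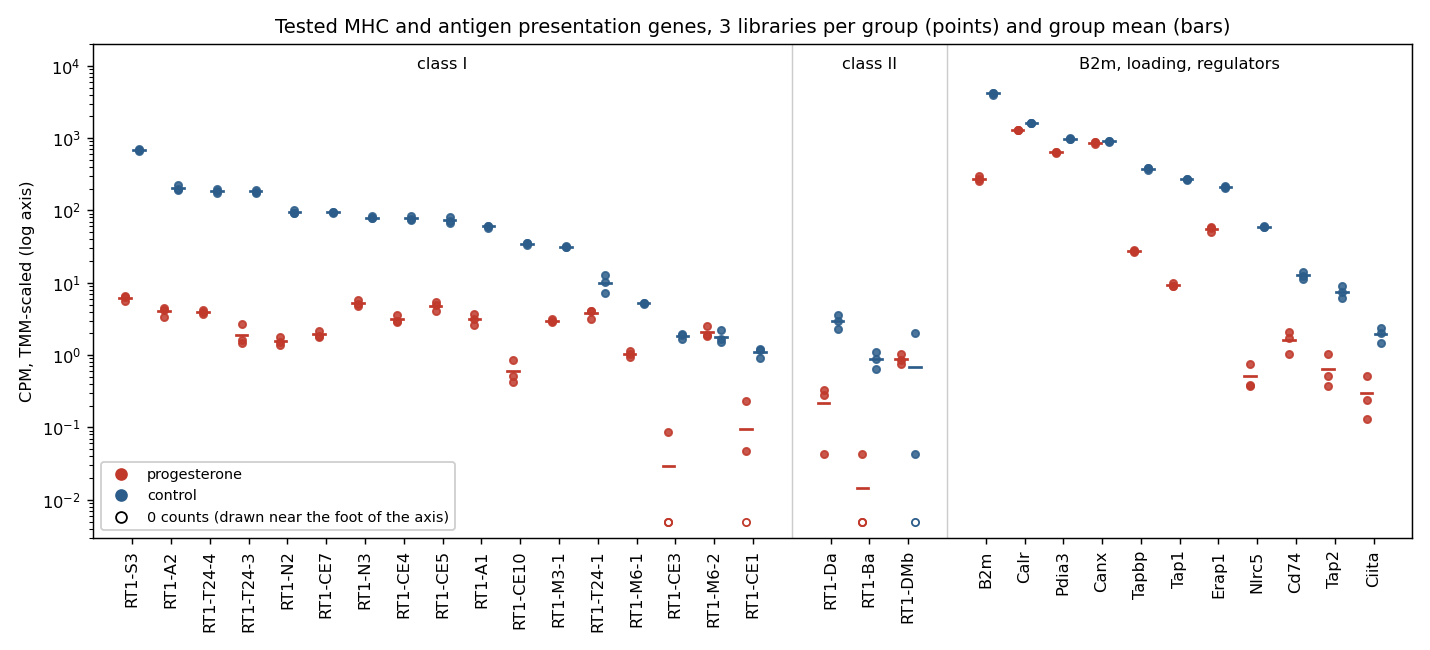
Level of each tested gene in every library, in CPM (counts scaled to equal library size) on a log axis, with progesterone left of control for each gene and a bar at the mean of 3 libraries. Most genes form separate groups of points, with RT1-S3 at 5.54 to 6.49 CPM with progesterone and 670 to 707 CPM in the control, while RT1-M6-2 and RT1-DMb overlap.

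RT1-S3, a class I gene at position 3176107 to 3179818 of chromosome 20 in the table's coordinates, whose build is not named, was read at 5.54, 6.45 and 6.49 CPM with progesterone, against 670, 707 and 695 CPM in the control. The groups lay far apart and varied little within themselves. The log2 fold change was -6.81 ± 0.06 (SE), with an adjusted p of 8.23e-20 by edgeR, the lowest among the class I rows. RT1-T24-3 stood at 1.47, 2.68 and 1.60 CPM with progesterone and at 182, 177 and 191 CPM in the control, a log2 fold change of -6.58 ± 0.12. Its neighbour RT1-T24-4 stood at 4.21, 3.67 and 3.98 CPM with progesterone and at 189, 174 and 198 CPM in the control (log2 fold change -5.56 ± 0.07). In both rows every progesterone library was below every control library. RT1-N2 had 1.37, 1.79 and 1.52 CPM with progesterone and 92.2, 92.4 and 100.3 CPM in the control (-5.92 ± 0.09). RT1-N3, of the same series, had 5.11, 5.84 and 4.76 CPM with progesterone and 82.6, 77.5 and 78.8 CPM in the control (-3.93 ± 0.07). Per length, RT1-N2 stood at 0.778 ± 0.104 FPKM with progesterone and 47.4 ± 2.27 FPKM in the control, and RT1-N3 at 2.88 ± 0.300 FPKM with progesterone and 43.8 ± 1.56 FPKM in the control. An antisense row, AABR07044362.4, overlaps RT1-S3, RT1-T24-4 and RT1-N3 on the other strand and had 20, 16 and 21 counts with progesterone and 110, 101 and 87 in the control. Since the sources used here do not state whether strand was used in the counting, a gene and its antisense partner cannot be told apart.

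The rows RT1-A1 and RT1-A2 are described as class Ia, the classical molecules that present to cytotoxic T cells. RT1-A2 was read at 3.41, 4.19 and 4.55 CPM with progesterone, against 190, 198 and 227 CPM in the control, a log2 fold change of -5.66 ± 0.10 (SE; adjusted p = 1.23e-11 by edgeR). RT1-A1 was read at 3.69, 2.59 and 3.12 CPM with progesterone, against 61.3, 57.6 and 61.1 CPM in the control, a log2 fold change of -4.26 ± 0.09. Neither row had overlapping groups. RT1-A2 lies within the span of RT1-A1 on the same strand, and their division of reads is uncertain. Of the 8 rows described as class Ib, the less variable class I molecules, 4 were tested and all 4 were lower. Of the 11 rows described as class I without a subclass, 10 were lower. Over all rows tested, 31.8% were lower. The 10 include RT1-CE10, RT1-CE3 and RT1-CE1, which passed the filter on the control libraries alone.

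The 6 rows of the RT1-CE series were all lower, where 31.8% of all rows tested were. RT1-CE10, RT1-CE3 and RT1-CE1 passed the filter on the control libraries alone. In the table the span of each row but RT1-CE10 overlaps others of the series, so that reads could have been divided among them. RT1-CE7 had 1.80, 2.17 and 1.86 CPM with progesterone and 94.5, 92.4 and 96.2 CPM in the control. RT1-CE4 had 2.84, 2.92 and 3.59 CPM with progesterone and 74.6, 83.4 and 75.8 CPM in the control. RT1-CE5 had 5.4, 4.05 and 4.89 CPM with progesterone and 71.6, 67.6 and 80.6 CPM in the control. Their log2 fold changes were -5.60 ± 0.08, -4.64 ± 0.09 and -3.94 ± 0.10 (SE), with no overlap between groups. RT1-CE10 stood at 0.521, 0.424 and 0.866 CPM with progesterone and at 33.0, 34.9 and 35.6 CPM in the control (-5.81 ± 0.15). In the table's coordinates it lies apart from the others, near the start of the RT1 region. In GRCr8 its promoter window starts at base 3384980 of chromosome 20, near that of RT1-CE5 at 3484091. RT1-CE3 had 0, 0 and 2 counts with progesterone and 43, 45 and 44 counts in the control, a depth-adjusted ratio 61.0-fold lower with progesterone (exact 95% interval 16.6 to 509, which covers counting error only). Its fitted log2 fold change of -5.69 became -8.40 without progesterone replicate 3, the only progesterone library with a read. RT1-CE1 had 1, 5 and 0 counts with progesterone and 23, 27 and 28 counts in the control. Its log2 fold change was -3.50 ± 0.58, but -5.29 without progesterone replicate 2 and -2.90 without progesterone replicate 3.

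Among the tested class I rows, the 3 of the RT1-M series and RT1-T24-1 had the smallest log2 fold changes. RT1-M3-1, whose mouse counterpart presents formylated peptides, was read at 3.17, 2.92 and 2.90 CPM with progesterone and at 30.9, 32.5 and 31.4 CPM in the control, a log2 fold change of -3.40 ± 0.09 (SE). RT1-M6-1 was read at 1.04, 1.13 and 0.952 CPM with progesterone and at 5.24, 5.11 and 5.21 CPM in the control (-2.31 ± 0.19). RT1-T24-1 was read at 4.12, 4.05 and 3.20 CPM with progesterone and at 10.4, 7.21 and 12.6 CPM in the control (-1.41 ± 0.19). The groups stood apart in all 3. RT1-M6-2 had 2.51, 1.88 and 1.86 CPM with progesterone and 1.5, 1.67 and 2.19 CPM in the control, and these ranges overlapped (log2 fold change 0.22 ± 0.23, adjusted p = 0.421 by edgeR). RT1-M6-1 and RT1-M6-2 overlap each other on the same strand, and Znrd1as1, on the opposite strand, overlaps both. RT1-T24-1 overlaps AABR07044364.1, a class I-like row outside the RT1 names, which had 3.52 ± 0.539 CPM with progesterone and 18.9 ± 2.61 CPM in the control (log2 fold change -2.43). Another class I-like row of the region, LOC103690108, had 15.5 ± 1.21 CPM with progesterone and 113 ± 2.51 CPM in the control (-2.86).

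Per length, the order of the class I rows differed between the groups. With progesterone RT1-S3 at 3.47 ± 0.298 FPKM, RT1-T24-1 at 3.30 ± 0.446 FPKM and RT1-N3 at 2.88 ± 0.300 FPKM led, and lay within their SDs of the next in order. In the control RT1-S3 led at 389 ± 9.8 FPKM (SD, n = 3), well above RT1-A2 at 122 ± 11.5 FPKM, RT1-T24-4 at 114 ± 7.39 FPKM and RT1-T24-3 at 113 ± 4.39 FPKM, which did not differ beyond their spread. RT1-S3 made up 13.1% ± 1.24 of the summed class I FPKM with progesterone and 39.0% ± 1.35 in the control. RT1-T24-1 made up 12.5% ± 1.52 with progesterone and 0.876% ± 0.216 in the control, and RT1-M6-2 7.46% ± 1.27 with progesterone and 0.169% ± 0.0284 in the control. By series, the summed FPKM was lower with progesterone by 63.6-fold for the RT1-N and RT1-S rows, 40.6-fold for RT1-A, 34.2-fold for RT1-T24, 26.1-fold for RT1-CE and 5.18-fold for RT1-M.

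**Figure D3:**
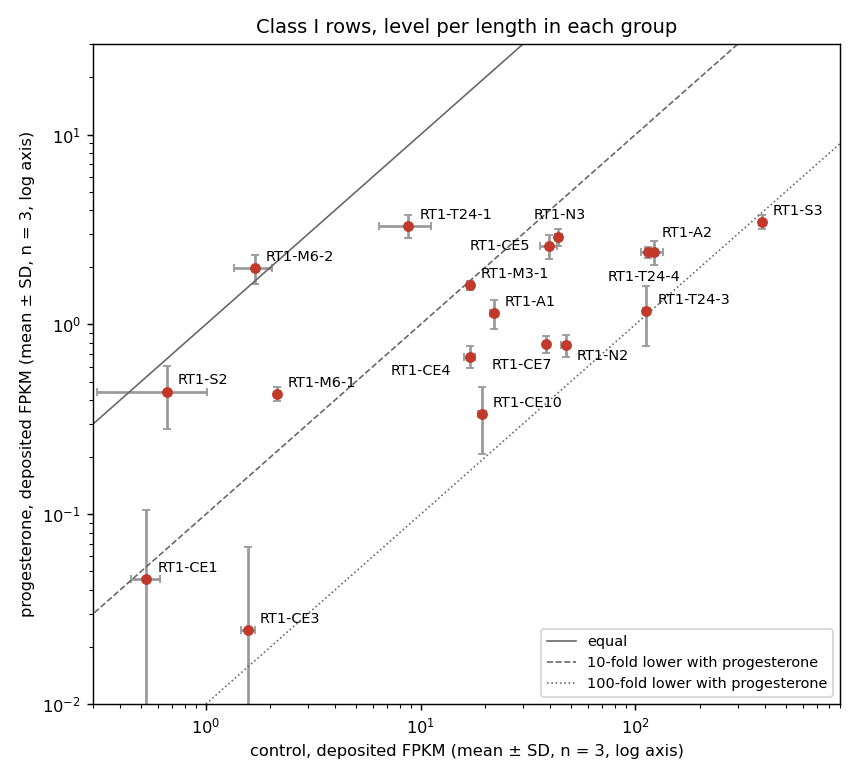
Mean FPKM of 18 class I rows with progesterone (vertical, log axis) and in the control (horizontal, log axis), with SD bars over 3 libraries that are cut where they reach below the axis. RT1-S3 and RT1-T24-3 lie nearest to the 100-fold line, and RT1-M6-2 lies close to the line of equal levels. RT1-M5, RT1-M4 and RT1-M2, at 0 in at least 1 group, are not drawn.

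B2m, which encodes the beta-2 microglobulin that every class I heavy chain needs, lies on chromosome 3 (114087287 to 114093309 in the table's coordinates). It was read at 258, 296 and 274 CPM with progesterone, against 4193, 3960 and 4263 CPM in the control. The groups were far apart, with a log2 fold change of -3.91 ± 0.06 (SE; adjusted p = 1.29e-17 by edgeR). Its level per length was 150 ± 10.2 FPKM with progesterone and 2257 ± 88.9 FPKM in the control. The ratio of the B2m FPKM to the summed class I FPKM was 5.27, 6.04 and 5.73 with progesterone and 2.34, 2.20 and 2.25 in the control, so B2m was lower by a smaller factor than the heavy chains together.

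The genes that deliver and load peptides fell by unequal amounts. Tap1 and Tap2 encode the subunits of the TAP transporter. Tap1 was read at 9.05, 10.1 and 9.14 CPM with progesterone and at 274, 266 and 270 CPM in the control, a log2 fold change of -4.84 ± 0.05 (SE). Tap2 was read at 0.379, 1.04 and 0.520 CPM with progesterone and at 6.14, 9.10 and 7.35 CPM in the control (-3.54 ± 0.30). Tapbp, which encodes tapasin, the bridge between TAP and class I molecules, was read at 28.4, 26.7 and 27.5 CPM with progesterone and at 384, 382 and 367 CPM in the control (-3.78 ± 0.05). Erap1, whose product trims peptides in the endoplasmic reticulum, was read at 50.9, 58.9 and 57.4 CPM with progesterone and at 206, 217 and 209 CPM in the control (-1.92 ± 0.05). No progesterone library reached a control library in any of these 4 genes. An antisense row, AC128962.1, overlaps Tapbp and had 20, 18 and 18 counts with progesterone and 206, 185 and 185 in the control.

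The general chaperones of the endoplasmic reticulum that also serve class I assembly moved little. Calr, which encodes calreticulin, stood at 1280, 1295 and 1280 CPM with progesterone and at 1621, 1601 and 1611 CPM in the control, a log2 fold change of -0.33 ± 0.04 (SE; adjusted p = 2.52e-06 by edgeR). Pdia3, the disulfide isomerase of the loading complex, stood at 645, 642 and 620 CPM with progesterone and at 988, 958 and 978 CPM in the control (-0.62 ± 0.04). Groups did not overlap in either. Canx, which encodes calnexin, had 881, 873 and 840 CPM with progesterone and 895, 912 and 910 CPM in the control. Its groups did not overlap either, but it was not called (-0.07 ± 0.04, adjusted p = 0.161), and with upper quartile scaling its log2 fold change was 0.03. Pdia3 overlaps Ppip5k1 on the opposite strand, which had 2444, 2343 and 2674 counts with progesterone and 2728, 2513 and 2377 in the control.

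Nlrc5, the transactivator of class I genes, had the lowest log2 fold change of the 31 genes. It was read at 0.379, 0.753 and 0.390 CPM with progesterone, which is 8, 16 and 9 counts, against 58.6, 60.0 and 59.1 CPM in the control. The log2 fold change was -6.86 ± 0.13 (SE; adjusted p = 2.59e-16 by edgeR). Nlrc5 passed the filter on the control libraries alone, so its call was bound to be toward lower values. Ciita, the transactivator of class II genes, was low in both groups, with 5, 11 and 3 counts with progesterone and 51, 56 and 34 in the control. Its log2 fold change was -2.73 ± 0.39, and -3.40 without progesterone replicate 2. Ciita too passed the filter on the control libraries alone.

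Class II genes were close to the limit of detection in both groups, and 3 of the 10 rows were tested. RT1-Da and RT1-Ba, which were called lower, passed the filter on the control libraries alone. The 10 rows took 29, 36 and 66 counts together with progesterone and 185, 93 and 131 in the control, without overlap. RT1-Da, an alpha chain, had 7, 6 and 1 counts with progesterone and 76, 54 and 83 in the control, a log2 fold change of -3.76 ± 0.40 (SE; adjusted p = 1.66e-06 by edgeR). RT1-Ba, another alpha chain, had 0, 0 and 1 counts with progesterone and 28, 15 and 20 in the control. That is a ratio 58.2-fold lower with progesterone (exact 95% interval 10.1 to 2335, counting error only), and its fitted log2 fold change of -5.41 became -7.33 without progesterone replicate 3. Cd74, the invariant chain that escorts class II molecules, was read at 1.04, 2.12 and 1.73 CPM with progesterone and at 11.3, 12.4 and 14.3 CPM in the control (-2.95 ± 0.20, adjusted p = 4.44e-08). In these 3 genes and in Ciita every progesterone library was below every control library.

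The markers of macrophages and dendritic cells, which carry class II, ran the other way. Of 17 markers with a row, 13 were tested. With progesterone 11 were higher (84.6%, against 31.2% of all rows tested) and none lower (against 31.8%). The median log2 fold change was 2.12. None of the 17 was at 0 in all libraries. Their summed level was 212 to 236 CPM with progesterone and 43.8 to 69.1 CPM in the control. Csf1r, the macrophage growth factor receptor, averaged 16.2 ± 1.39 CPM with progesterone and 3.29 ± 1.10 CPM in the control, and Itgax, the integrin CD11c, 13.3 ± 1.61 CPM with progesterone and 3.05 ± 0.904 CPM in the control. Of 12 lymphocyte markers none passed the filter, 5 were at 0 in all libraries, and their sum was 0.141 to 0.284 CPM with progesterone and 0.197 to 0.429 CPM in the control. The part of these cells in the class I and class II results was not tested.

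RT1-DMb and RT1-DMa encode the DM heterodimer, which loads peptides onto class II molecules, and each has a second row under a LOC name. RT1-DMb had 18, 16 and 24 counts with progesterone and 51, 1 and 0 in the control, while LOC108348139, whose span of 7246 bases is the same, had 31, 28 and 0 counts with progesterone and 0, 33 and 66 in the control. In all control libraries and in progesterone replicate 3 nearly all reads of the pair stood in 1 row, which was the LOC row in control replicates 2 and 3, while progesterone replicates 1 and 2 had reads in both. The summed counts were 49, 44 and 24 with progesterone and 51, 34 and 66 in the control, and they overlapped. The RT1-DMb row alone had a log2 fold change of 0.32 ± 1.42 (SE; adjusted p = 0.864 by edgeR), and the sum one of -0.23 ± 0.32 (adjusted p = 0.55). Without control replicate 1 the row alone had a log2 fold change of 5.03 (adjusted p = 8.26e-05), and without control replicate 2 or 3 one of -0.22 or -0.24. RT1-DMa and LOC108348072 summed to 3, 7 and 82 counts with progesterone and 25, 22 and 8 in the control, with nearly all of the progesterone reads in 1 library (log2 fold change 0.83 ± 1.30, adjusted p = 0.619). The copies were summed after the data had been seen.

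**Figure D4:**
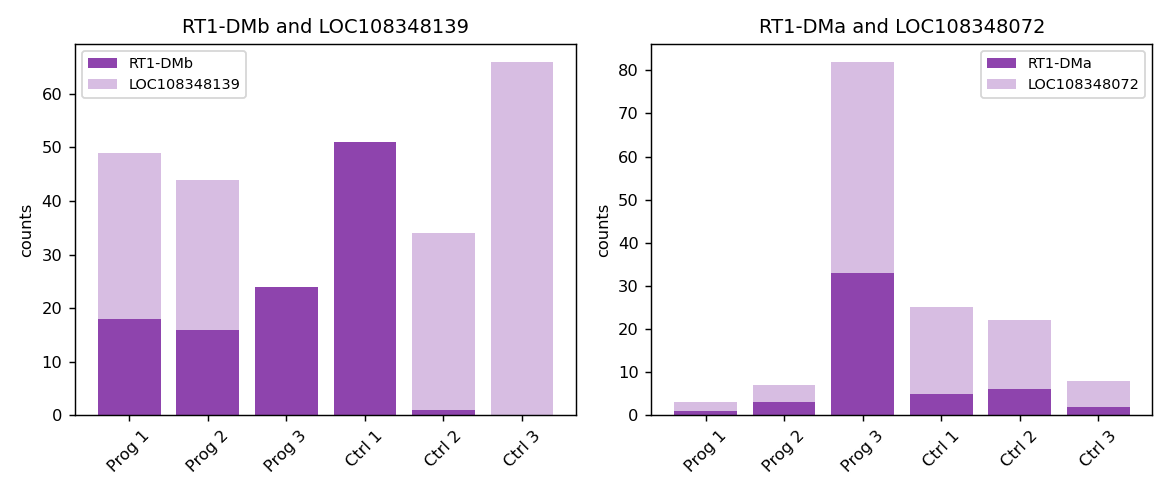
Counts per library of RT1-DMb and RT1-DMa and of the LOC row paired with each, with progesterone libraries left of control libraries. The reads of the DMb pair sit in 1 row or the other in control replicates 1 to 3 and in progesterone replicate 3, and the sums run from 24 to 49 with progesterone and from 34 to 66 in the control.

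The genes not tested carried few reads. RT1-S2 had 6, 3 and 7 counts with progesterone and 9, 13 and 4 in the control. RT1-Bb, a class II beta chain, had 3, 9 and 3 counts with progesterone and 16, 11 and 7 in the control, and RT1-Db1 had 0, 0 and 4 with progesterone and 9, 6 and 19 in the control. RT1-DMa had 1, 3 and 33 with progesterone and 5, 6 and 2 in the control. RT1-M5, RT1-M4 and RT1-DOb had 2 counts or fewer in all. RT1-M2, RT1-DOa, RT1-Ha and RT1-Db2 had none, and a count of 0 over a group has an upper limit of about 3 counts at 95% confidence, for counting error only. Reads of these genes could also have been assigned to similar RT1 rows.

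Most other genes of the RT1 region did not share the size of these differences. The span and order of rows used here are the table's, whose build is not named, and GRCr8 places RT1-CE10 and RT1-DMa differently. Between the outermost RT1 rows on chromosome 20 (154074 to 5421098) the table has 174 other protein-coding rows, of which 93 were tested. Of these, 36 were lower (38.7%, against 31.8% of all rows tested) and 25 higher (26.9%, against 31.2%), and the median log2 fold change was -0.11. At least 8-fold lower were 11 of the 93 (11.8%, against 2.10% of all rows tested). Among the 11 were Psmb9 and Psmb8, which lie beside Tap1 and Tap2, the complement genes C2 and C4b, and Ubd, which had no count with progesterone and 10.7 CPM in the control. Ubd and, also of the 11, Prrt1 and AABR07044383.1 passed the filter on the control libraries alone. Their calls were bound to be toward lower values. The 11 also held LOC100364500, which is described as an RT1 class I-like locus. Another of them, AABR07044404.1, overlaps RT1-CE7, RT1-CE4 and RT1-CE1 on the same strand. Along the whole region the other genes moved in both directions, but some RT1 and Tap genes lay beside lower ones. In the order of tested rows, Psmb9 (log2 fold change -6.30), Psmb8 (-6.13) and C4b (-4.73) lay beside Tap1, Tap2, RT1-Ba and RT1-Da. LOC100364500 (-3.14) lay beside RT1-N2, and AABR07044364.1 (-2.43) between RT1-T24-3 and RT1-T24-1. Other neighbours were not lower, such as Gnl1 (0.10) beside RT1-T24-1 and Ddx39b (0.36) beside RT1-CE7.

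**Figure D5:**
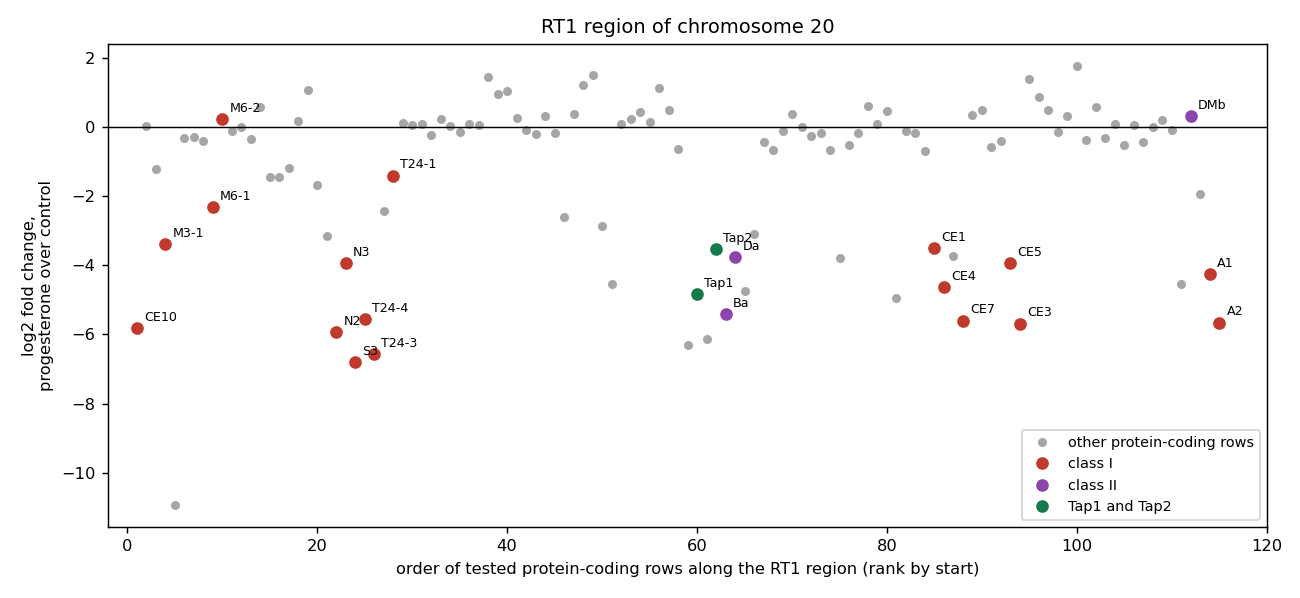
Log2 fold change (progesterone over control) of the tested protein-coding rows of the RT1 region of chromosome 20, ordered by start in the table's coordinates. Most grey points (other genes, median -0.11) lie near 0 and 11 of them at least 8-fold lower, while class I rows, RT1-Da, RT1-Ba, Tap1 and Tap2 lie between -6.81 and -1.41, apart from RT1-M6-2 and RT1-DMb.

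Of 17 tested genes of peptide supply and loading outside the 42, 10 were lower (58.8%, against 31.8% of all rows tested) and 5 higher (29.4%, against 31.2% of all rows tested), and their median log2 fold change was -0.20. The inducible catalytic subunits of the proteasome were among the lower ones. Psmb9 averaged 2.14 ± 0.0988 CPM with progesterone and 169 ± 5.63 CPM in the control (log2 fold change -6.30), Psmb8 1.67 ± 0.301 CPM with progesterone and 117 ± 2.68 CPM in the control (-6.13), and Psmb10 13.6 ± 0.811 CPM with progesterone and 118 ± 5.62 CPM in the control (-3.11). Ube2l6, a conjugating enzyme of the ubiquitin-like protein ISG15, averaged 10.8 ± 0.706 CPM with progesterone and 99.0 ± 2.76 CPM in the control (-3.20).

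Of 16 tested regulators of MHC transcription, 11 were lower (68.75%, against 31.8% of all rows tested) and 2 higher (12.5%, against 31.2%). Their median log2 fold change was -0.78. Stat2, a transcription factor of interferon signalling, averaged 32.6 ± 2.70 CPM with progesterone and 703 ± 8.03 CPM in the control (log2 fold change -4.43), and its partner Irf9 16.7 ± 0.929 CPM with progesterone and 125 ± 2.02 CPM in the control (-2.90). Irf1, an activator of class I promoters, averaged 23.2 ± 0.927 CPM with progesterone and 113 ± 2.56 CPM in the control (-2.29). Rfx5, the X box factor that both transactivators work through, averaged 54.8 ± 0.337 CPM with progesterone and 59.5 ± 2.00 CPM in the control (-0.12, adjusted p = 0.0379 by edgeR).

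Further lists covered the steps after loading. Over all rows tested, 31.8% were lower and 31.2% higher. Of tested genes, 75% were lower and 25% higher in class II processing, and 71.4% and 14.3% among class I-like molecules. Among costimulatory and checkpoint ligands 80% were lower and 10% higher. Among receptors that read MHC molecules 33.3% were lower, close to the share of all rows, and 50% higher. In class II processing, 6 of 8 tested were lower and 2 higher (median -0.38), led by the lysosomal proteases Ctsh at 61.1 ± 2.96 CPM with progesterone and 205 ± 11.5 CPM in the control (log2 fold change -1.74), Lgmn (-1.10) and Ctsl (-0.93). Among class I-like molecules encoded elsewhere, 5 of 7 were lower and 1 higher (median -0.63), with the lipid-presenting Cd1d1 at 3.36 ± 0.738 CPM with progesterone and 28.2 ± 2.13 CPM in the control (-3.06), Fcgrt, the neonatal Fc receptor (-0.63), and Mr1, which presents vitamin metabolites (-1.90). Of costimulatory and checkpoint ligands, 8 of 10 were lower and 1 higher (median -2.01). Lgals9, which encodes galectin-9, averaged 9.42 ± 1.19 CPM with progesterone and 496 ± 7.51 CPM in the control (-5.72), the adhesion ligand Icam1 68.5 ± 2.22 CPM with progesterone and 317 ± 13.7 CPM in the control (-2.21), and Cd47, an inhibitory signal to phagocytes, 40.2 ± 1.57 CPM with progesterone and 158 ± 1.90 CPM in the control (-1.98). Of 6 tested receptors that read MHC molecules, 3 were higher and 2 lower (median 0.75), with Lilrb3 at 6.72 ± 0.688 CPM with progesterone and 0.313 ± 0.223 CPM in the control (4.42) and Cd4 at 3.09 ± 0.412 CPM with progesterone and 0.591 ± 0.441 CPM in the control (2.38), both also carried by macrophages. Klrk1, an activating receptor of lymphocytes, averaged 0.0144 ± 0.025 CPM with progesterone, 1 count in 1 library, and 46.0 ± 1.06 CPM in the control. The 12 lymphocyte markers summed to 0.197 to 0.429 CPM in the control, and the cells that carried Klrk1 were not identified. The filter asked for about 0.436 CPM in 3 libraries. Lilrb3 and Cd4 passed it on the progesterone libraries alone, and Klrk1 on the control libraries alone. The directions of these calls, which the shares of the receptors include, were therefore bound beforehand.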

How the data were processed

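RNA-seq counts of 3 progesterone and 3 control libraries were analysed, grouped by their titles. The authors deposited whole-number counts per gene and FPKM values, scaled by gene length and library total. The FPKM divisor that the deposited counts and lengths imply was within 1.57% of the count total of each library. The aligner Bowtie (version 0.12.2) and the mouse build mm8 are named per the submitters' processing notes, although the rows carry rat Ensembl identifiers. No source used here states the rat build, the annotation, the read counter or the strand setting. Coordinates of rows are those of the table, and promoter sequences are from RefSeq (GRCr8).

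The test was edgeR's quasi-likelihood test (version 4.0.16, R 4.3.3). Rows were kept by filterByExpr (minimum count 10, minimum total 15) and scaled by TMM, the fit was robust, and p-values were adjusted by Benjamini-Hochberg over all 15075 rows tested, with a threshold of 0.05. CPM values are scaled by TMM, and the SE of a log2 fold change comes from the F statistic. The test was checked on simulated data. Which group's counts carried a row past the filter was worked out in full for the 42 genes alone. Alternatives were other scalings and filters, leaving out each replicate, a replicate block, DESeq2 1.42.0, and limma 3.58.1 on log2(FPKM + 1) and log2(FPKM + 0.1), run on the FPKM values the authors deposited. Log2 CPM of libraries correlated (Pearson) at 0.988 to 0.990 within a group and at 0.905 to 0.914 across groups. No pair of replicates was a duplicate, since chi-square per degree of freedom was 5.67 to 9.88.

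The genes and lists were chosen with earlier results of these data known. All 42 genes could be named. From each further list, up to 3 tested genes with the smallest adjusted p and at least 1 CPM in a group were named, plus Psmb8, Psmb9, Psmb10, Irf1 and Rfx5, and 1 gene that the rule names is not reported here. Csf1r and Itgax were picked from the macrophage markers after their values were seen, as were the genes named in the RT1 region, the antisense and overlapping rows, Myh6 and Col1a1.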

Additional observations from a re-analysis of the deposited data

How the results depend on the processing

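All 28 called genes kept their direction and their side of the threshold under each of the 16 alternatives, in 446 of 446 values that could be computed. The count of the 42 genes called higher, 0 in the analysis reported, and that of class II called higher were 1 with no filter on low counts (RT1-DMa) and ran from 0 to 1 as replicates were left out (RT1-DMb, 5.03 on the log2 scale without control replicate 1). Under a filter of 1 CPM in 3 libraries, class II called lower was 1, costimulatory ligands called higher 0 and receptors called lower 1. MHC regulators called higher, 2 in the analysis reported, were 4 with upper quartile scaling, 1 with library size scaling, 1 with no filter and 1 with DESeq2, and ran from 1 to 2 as replicates were left out. The log2 ratio of the class I share was -5.31 from counts, -5.23 from summed FPKM and -4.88 with class I rows outside the RT1 names added, which was chosen after seeing the data. Among single genes, RT1-DMb turned to -0.22 without control replicate 2, to -0.24 without control replicate 3 and to -0.23 with copies summed, and Canx to 0.030 with upper quartile scaling. In these cases the cause was not tested, except that a filter changes which genes are tested. Upper quartile scaling shifted the median log2 fold change of all rows to 0.10 and gave 60.1% of changed rows as higher, against 49.6% with TMM. Adding 1 to FPKM before taking logs moved 16 of the called genes by more than 1.5-fold, and adding 0.1 moved 6. Libraries with the same replicate number did not deviate together (correlations 0.05, 0.02 and -0.00 between progesterone and control). The labels do not say whether the numbers pair the samples, and these correlations cannot exclude it. The replicate block gave 4691 rows higher, against 4707 without it, and changed no call among the 42 genes. Depth limits the class II rows and RT1-M2, RT1-M4 and RT1-M5, whose counts were low or 0.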
